A study of Mus musculus with 3 samples.

Results

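Unc5b, Eva1a, Pcgf5, Pofut2, Rbm19, Shisa9 and Capn9 are 7 of 21883 mouse protein-coding genes, chosen by how many H3K27ac peaks they had in an Arid1a heterozygous knockout library relative to a homozygous knockout library and a wild-type library. H3K27ac is acetylation of histone H3 that marks active promoters and enhancers. A peak was given to a gene where it touched the gene, or where it lay within 50 kb of it with no other protein-coding gene nearer. By this rule the 7 genes held 63 of 31365 peaks in the heterozygous library, 20 of 34298 in the homozygous library and 22 of 41490 in the wild-type library. The peak counts that chose the genes are given below as a description, with no test.

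All 3 libraries came from MIN6, a mouse insulinoma line used as a model of pancreatic beta cells. Per the labels, the line stably expressed Cas9 under blasticidin selection, was infected with a lentiviral guide RNA against Arid1a under puromycin selection, and was grown into single-cell clones. PCR genotyping and Western blotting sorted the clones into Arid1a heterozygous knockout, Arid1a homozygous knockout and wild type, with 1 library a genotype. The labels do not say how many clones a library holds. With 1 library a genotype no p-value can be given, and every difference is between single libraries. Arid1a, on chromosome 4 at 133679008 to 133756769 (mm10), had 4 peaks in the heterozygous library, 6 in the homozygous library and 5 in wild type, which does not check the edit. The guide is shown because it was directed at Arid1a in the line that gave the clones, with its protospacer-adjacent motif in capitals.
Arid1a guide: gctgctgctgatacgaaggtTGG

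Arid1a encodes a subunit of the SWI/SNF complex, which slides and evicts nucleosomes and thereby opens enhancers to transcription factors and to the acetyltransferases that lay down H3K27ac. In pancreatic beta cells H3K27ac is densest at genes of hormone production and secretion, while guidance receptors, synaptic proteins and digestive proteases belong mainly to other tissues. The 7 genes share no single pathway. Unc5b, Shisa9 and Eva1a encode membrane proteins, Pcgf5 and Rbm19 nuclear proteins, and Pofut2 and Capn9 enzymes.

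The heterozygous and homozygous libraries had the same lowest background, 1.73 reads per position, and the wild-type library 2.17 reads, which is 1.25 times the heterozygous value. This background was taken to follow sequencing depth, which was not checked. The wild-type list was the longest and the heterozygous list the shortest, so that across the genome 15.0% of the 14577 genes with any peak had more peaks in the heterozygous than in the wild-type library and 39.4% had fewer. All 12 beta cell marker genes checked, among them Ins1, Ins2, Pdx1 and Nkx6-1, had a peak in each library. In the wild-type list the peaks are named with GAL4, a tag that no label explains.

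Promoter sequence of 4 of the genes is shown because peaks at these starts differed between the genotypes at Unc5b, Eva1a and Capn9 and were present in every genotype at Pofut2. Each line is the 250 bases before the gene start on the gene's own strand, as RefSeq gives them for GRCm38.p6, to which mm10 corresponds. The intervals are chr10:60831582-60831831 on the minus strand for Unc5b, and on the plus strand chr6:82041378-82041627 for Eva1a, chr8:124575861-124576110 for Capn9 and chr10:77259050-77259299 for Pofut2. Capitals mark GC boxes, GGGCGG on either strand.
Unc5b: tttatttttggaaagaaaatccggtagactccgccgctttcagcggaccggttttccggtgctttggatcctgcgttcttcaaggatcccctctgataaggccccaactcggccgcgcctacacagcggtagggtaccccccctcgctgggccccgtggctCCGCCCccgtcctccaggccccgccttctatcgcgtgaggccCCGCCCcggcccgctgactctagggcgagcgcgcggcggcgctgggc
Eva1a: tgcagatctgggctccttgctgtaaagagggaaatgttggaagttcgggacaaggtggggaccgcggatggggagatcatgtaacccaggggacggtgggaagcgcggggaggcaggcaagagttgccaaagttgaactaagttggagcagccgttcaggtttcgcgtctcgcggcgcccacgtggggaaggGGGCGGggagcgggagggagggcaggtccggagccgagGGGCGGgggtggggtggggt
Capn9: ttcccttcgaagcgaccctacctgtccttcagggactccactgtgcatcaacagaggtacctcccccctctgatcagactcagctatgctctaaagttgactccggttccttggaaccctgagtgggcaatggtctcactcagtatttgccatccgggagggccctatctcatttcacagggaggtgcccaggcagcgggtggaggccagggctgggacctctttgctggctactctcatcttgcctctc
Pofut2: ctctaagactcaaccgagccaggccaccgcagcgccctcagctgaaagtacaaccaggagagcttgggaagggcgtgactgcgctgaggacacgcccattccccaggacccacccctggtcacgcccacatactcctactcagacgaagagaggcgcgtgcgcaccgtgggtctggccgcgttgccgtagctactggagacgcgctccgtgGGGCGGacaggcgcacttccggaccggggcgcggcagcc

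The starts with the GC boxes were also rich in CpG. Over 300 bases, the 250 above and the next 50, the Unc5b promoter was 69.7% G or C with 36 CpG, Eva1a 64.0% with 21, and Pofut2 68.7% with 32. Capn9 had 56.0% with 6, near the medians of 52.7% and 7 over 32851 mouse promoters. Richness in CpG did not require a GC box, as Rbm19, which had none, was 61.0% with 23. A GC box was found in 5 of the 8 promoters that matched 6 of the genes and in 35.7% of all promoters. The cyclic AMP response element core TGACGT and the AP-1 motif TGANTCA were in none of the 8 promoters, against 7.51% and 7.81% of all. The E-box CACGTG was in those of Eva1a and Rbm19, against 7.15% of all, and the ETS motif CCGGAA in those of Unc5b, Pofut2 and Rbm19, against 14.9%. TATAAA was in none (13.6% of all), while CCAAT (37.4%) and the forkhead motif TGTTTAC (3.65%) were in 1 Pcgf5 promoter and the TEAD motif GGAATG (14.7%) in that of Pofut2. Both strands were searched, the ETS and TEAD motifs can overlap by the letters GGAA, and a match is a description of letters only.

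Counted over all 7 genes, 6 had more peaks in the heterozygous library than in each of the others, where 9.76% of all genes with a peak did. Against the homozygous library all 7 had more (20.2% of all genes), and against wild type 6 had more and Capn9 fewer. Because the genes were picked on these counts, nothing is read from their excess over the genome. The wild-type and homozygous comparisons share the heterozygous library and are not independent. As a measured average over the cells of a library, a peak does not tell fewer acetylated cells from less acetylation per cell.

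**Figure D1:**
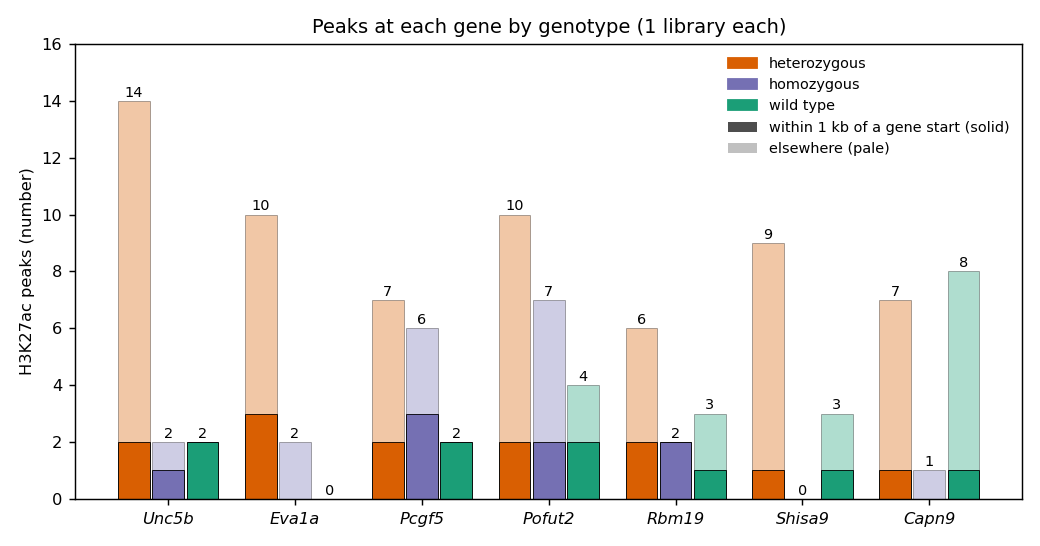
Number of H3K27ac peaks (y axis) at each of the 7 genes (x axis) in the heterozygous, homozygous and wild-type libraries, with solid bars for peaks within 1 kb of a gene start (either end for Shisa9) and pale bars for peaks elsewhere. The heterozygous bars reach 14 at Unc5b and 10 at Eva1a and Pofut2, and only at Capn9 is another bar, 8 in wild type, higher.

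Most of the additional peaks lay away from the promoter. Of the 63 heterozygous peaks 13 lay within 1 kb of a gene start, 29 others lay inside a gene, 7 upstream and 14 downstream. The promoter share was 20.6% in the heterozygous library (Wilson 95% interval 12.5 to 32.2%, counting error only), 40.0% in the homozygous library (21.9 to 61.3%) and 40.9% in wild type (23.3 to 61.3%). Over whole lists, 41.7% of heterozygous, 38.6% of homozygous and 34.4% of wild-type peaks lay within 1 kb of the start of any gene. That is a wider measure than the shares above, which count only starts of the gene that was given the peak. Since the genes were picked for many heterozygous peaks and promoters hold few each, a lower heterozygous promoter share follows from the choice, and nothing is read from it. For Shisa9, whose strand and start were not in the tables used, either end of the gene stood in for the start.

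By position, 43 of the 63 heterozygous peaks overlapped no wild-type peak (68.3%, interval 56.0 to 78.4%), where 20.5% of all heterozygous peaks did not. With the homozygous list 47 overlapped none (74.6%, 62.7 to 83.7%), where 26.9% of all did not. Neither list held a peak at 37 of the 63 (58.7%, 46.4 to 70.0%), against 14.6% of all heterozygous peaks. Of these 37, 22 lay inside a gene, 12 outside and 3 at a promoter, all 3 at Eva1a. These shares follow from the way the genes were picked.

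Pooled over the 7 genes, the heterozygous peaks had lower folds than most of their own list and stood on a raised local background, but not at every gene. The authors' fold enrichment, the summit over its local background, had a median of 5.04 at these peaks, and 17 of 63 were at or above the median of the list, 5.81. By −log10 q, the authors' significance of a peak, 34 of 63 were at or above the list median. The number of reads piled up at a summit and the local background, both recovered from the deposited fold and p, had medians of 54 and 10.8 reads at these peaks, against 47 and 6.72 over the list. By gene, the median fold was above that of the list at Pcgf5 (6.03) and Rbm19 (7.77) and below it at the others. The median background was below that of the list at Rbm19 (5.09) and only just above it at Pcgf5 (6.96). Fold and −log10 q are used here only within a list. Of the 63, 48 (76.2%) lay within 1 kb of another peak of the same library and gene, where 59.2% of the whole list lay within 1 kb of another peak. In the homozygous library 15 of 20 did and in wild type 12 of 22. Since the genes were picked for many heterozygous peaks, a higher heterozygous share can follow from the choice, and nothing is read from it.

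Unc5b, on chromosome 10 at 60762594 to 60831581 and read on the minus strand, encodes a receptor for netrins that repels growing axons and shapes vessels. It had 14 peaks in the heterozygous library, 2 in the homozygous library and 2 in wild type, the largest excess of any of the 14577 genes. The 14 peaks covered 6797 bp, against 575 bp in the homozygous library and 777 bp in wild type. They fell in 7 runs of peaks no more than 1 kb apart, the longest of 4 peaks. With peaks within 500 bp counted as 1 the excess of 12 came to 6 over wild type and 5 over the homozygous library.

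Inside the gene, 11 heterozygous peaks lay from 14053 to 60148 bp downstream of the start, and 10 of them met no peak in either other list. The strongest, at 60804703 to 60805664, had 144 reads at its summit, a fold of 7.38 and a −log10 q of 71.6, higher than for 94.2% of the heterozygous list. The run of 4 at 60790662 to 60793309 had summits of 71, 94, 65 and 83 reads with folds of only 2.82 to 3.96, over a local background of up to 23.2 reads. A homozygous peak of 13 reads at 60791340 to 60791539 overlapped the second of these, and wild type had no peak inside the gene beyond the promoter. The pair at 60782816 to 60784335 reached 106 and 84 reads and the trio at 60816107 to 60817528 37, 61 and 48.

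The Unc5b promoter was acetylated in every genotype. On the gene side of the start, where no homozygous peak was called, the summit had 78 reads in the heterozygous library and 26 in wild type. The summit stood over local backgrounds of 10.3 reads in the heterozygous library and 2.96 in wild type. On the upstream side it had 36 reads in the heterozygous library, 21 in the homozygous library and 22 in wild type. Against wild type the internal peaks were therefore not accompanied by a new promoter peak. The count at the existing one was 3.00 times the wild-type count in reads not scaled for depth. Against the homozygous library the gene-side promoter peak had no counterpart. A further weak heterozygous peak, of 16 reads, lay 46029 bp upstream of the gene.

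Eva1a, on chromosome 6 at 82041048 to 82093099, encodes a transmembrane protein of the endoplasmic reticulum and lysosome that is linked to autophagy. It had 10 peaks in the heterozygous library, 2 in the homozygous library and 0 in wild type. Here the promoter itself was among the peaks found in the heterozygous library alone. Its 3 promoter peaks had summits of 55, 62 and 59 reads and folds of 3.38 to 3.69, with another of 50 reads 1837 bp before the start. The 4 peaks spanned 82039524 to 82042901, and neither other library had a peak there.

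Past the promoter, heterozygous peaks came in pairs at Eva1a. The pair inside the gene, 41849 and 43119 bp from the start, had 75 and 56 reads, and the pair beyond its far end, 5489 and 6137 bp away, had 58 and 67. The homozygous library had its 2 peaks 31920 and 32312 bp beyond that end, with 17 and 23 reads. The first overlapped a heterozygous peak of 33 reads, so that this distal site was the place where the knockout libraries shared a peak. A last heterozygous peak, of 17 reads, lay 39946 bp from the gene.

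**Figure D2:**
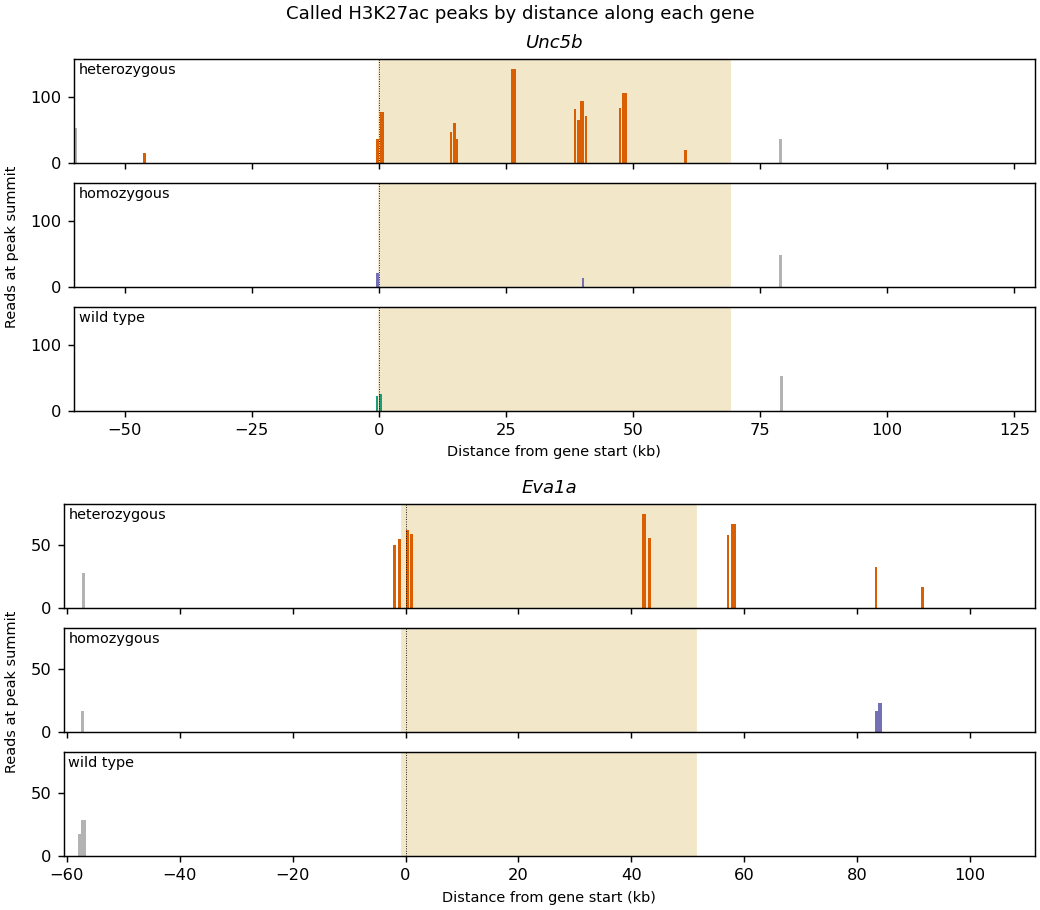
Called peaks at Unc5b and Eva1a by distance from the gene start (x axis, kb) in the heterozygous, homozygous and wild-type libraries, with the reads at each summit as bar height (y axis, not scaled for depth), the gene shaded, and peaks that belong to neighbouring genes in grey. Bars are drawn slightly wider than narrow peaks. At Unc5b the heterozygous summits reach 144 reads inside the gene, and at Eva1a the promoter bars of 55 to 62 reads have no counterpart in the other libraries.

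Shisa9, on chromosome 16 at 11983593 to 12270904, encodes an auxiliary subunit of AMPA-type glutamate receptors in neurons. It had 9 peaks in the heterozygous library, 0 in the homozygous library and 3 in wild type. All 3 wild-type peaks were at places where the heterozygous library also had one. The peak at the left end of the gene had 60 reads in the heterozygous library and 17 in wild type, and spanned 1795 bp and 297 bp. At 12069384 to 12070216 the heterozygous summit had 58 reads, against 24 at the overlapping wild-type peak. At 12075973 to 12077803 the counts were 143 reads in the heterozygous library and 63 in wild type. At all 3 places the local background was also higher in the heterozygous library. It was 8.74, 12.8 and 29.1 reads there and 2.17, 2.78 and 9.68 in wild type.

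The other 6 heterozygous peaks of Shisa9 had no counterpart. They included a pair 7088 and 7999 bp from the right end, at 12262090 to 12263816, with 102 and 73 reads, and 4 peaks deeper in the gene with 19 to 33 reads. The homozygous library had no peak anywhere in the gene or within 50 kb of it, which says only that none passed the authors' threshold.

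Pofut2, on chromosome 10 at 77259081 to 77269586, encodes the enzyme that adds O-linked fucose to thrombospondin repeats in the endoplasmic reticulum. It had 10 peaks in the heterozygous library, 7 in the homozygous library and 4 in wild type. Its promoter was much alike in all of them. The main promoter summit had 129 reads in the heterozygous library, 154 in the homozygous library and 137 in wild type, and a second peak just before the start had 48 reads in the heterozygous library, 58 in the homozygous library and 56 in wild type.

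What set the heterozygous library apart at Pofut2 was a series of upstream peaks. Pairs lay at 77225060 to 77226404 with 52 reads each, and at 77242128 to 77243384 with 33 and 53 reads, and neither other library had a peak at either place. Nearer the gene, 6614 bp before it, the order was different. That peak had 53 reads in the heterozygous library, 117 in the homozygous library and 15 in wild type, so that it was highest in the homozygous library. On the far side, the peaks at 77272449 to 77274281 were in all 3 libraries, split into 2 in each knockout and joined in wild type, with 115 and 107 reads in the heterozygous library, 135 and 174 in the homozygous library and 124 in wild type. A peak 10109 bp past the gene had 37 reads in the heterozygous library and 66 in the homozygous library, with none in wild type.

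Pcgf5, on chromosome 19 at 36348329 to 36460970, encodes a subunit of a variant Polycomb repressive complex that ubiquitinates histone H2A. It had 7 peaks in the heterozygous library, 6 in the homozygous library and 2 in wild type, so that its excess over the homozygous library was 1 peak. That excess came to 0 with a −log10 q of at least 10. The heterozygous peaks covered 3227 bp and the homozygous peaks 3338 bp. The 2 acetylated promoters of Pcgf5 went the other way from the count. The summit at the first start had 15 reads in the heterozygous library, 46 in the homozygous library and 44 in wild type. At the internal start near 36409748 the summit had 31 reads in the heterozygous library, 79 in the homozygous library and 84 in wild type. The highest heterozygous promoter count was thus 0.392 of the homozygous and 0.369 of the wild-type count, while the heterozygous peak number was the highest. The local background at that summit was also lowest in the heterozygous library, with 2.40 reads there and 6.92 in wild type. The ratios therefore do not measure enrichment over background.

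The distal peaks of Pcgf5 lay beyond the end of the gene. A trio 35025 to 36591 bp past the end had 34, 69 and 38 reads in the heterozygous library and 52, 110 and 43 in the homozygous library, with none in wild type. A pair 15698 and 16528 bp past the end, with 54 and 46 reads, was called in the heterozygous library alone. No peak of any list lay at the remaining annotated start of the gene, at 36379067.

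Rbm19, on chromosome 5 at 120116513 to 120198971, encodes a nucleolar RNA-binding protein needed to make ribosomes. It had 6 peaks in the heterozygous library, 2 in the homozygous library and 3 in wild type. The promoter was again present throughout. Its highest summit was lowest in the heterozygous library, with 31 reads there, 39 in the homozygous library and 51 in wild type. The promoter was split into 2 peaks in each knockout and was a single peak of 958 bp in wild type. At the knockout peak before the start the order was the other way, with 30 heterozygous and 21 homozygous reads. With peaks within 500 bp counted as 1 over the whole gene the excess of 3 peaks over wild type came to 0.

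A strong pair inside Rbm19, at 120167343 to 120168859, made up part of the difference. The split promoter added to the excess over wild type, and the peaks past the end of the gene entered the counts too. The summits of the pair had 116 and 75 reads, with no peak there in the other libraries. The first stood higher in −log10 q, 62.9, than 91.9% of the heterozygous list. A peak 30287 bp past the end of the gene was shared with wild type, with 44 reads in the heterozygous library and 35 in wild type, beside a heterozygous one of 31 reads. Wild type alone had a peak 3738 bp past the end, with 23 reads.

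Capn9, on chromosome 8 at 124576062 to 124618731, encodes a calpain, a calcium-dependent protease found mainly in the digestive tract. It had 7 peaks in the heterozygous library, 1 in the homozygous library and 8 in wild type, so that it did not have the most peaks in the heterozygous knockout. The difference from wild type, -1, turned to 1 with lists shortened to equal length, with −log10 q at or above the median of each list, and with a −log10 q of at least 10. It was a gene with peaks in the heterozygous and wild-type libraries and a single weak peak in the homozygous one. The promoter summit had 76 reads in the heterozygous library and 58 in wild type, and no homozygous peak was called there. Of the 7 heterozygous peaks 5 overlapped a wild-type peak and none the homozygous peak, which had 17 reads.

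Within Capn9 the heterozygous and wild-type libraries shared only some of their places in the later part of the gene. The heterozygous pair at 124609113 to 124610447, with 58 and 102 reads, had no wild-type counterpart. The wild-type pair at 124605167 to 124606159, with 38 and 33 reads, had no heterozygous one, nor had a wild-type peak of 56 reads at 124618616 to 124618970. The second peak of the wild-type pair overlapped the homozygous peak. Near the end of the gene the libraries shared a place, with overlapping peaks of 39 reads in the heterozygous library and 141 in wild type. The local background there was 6.86 reads in the heterozygous library and 18.7 in wild type.

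**Figure D3:**
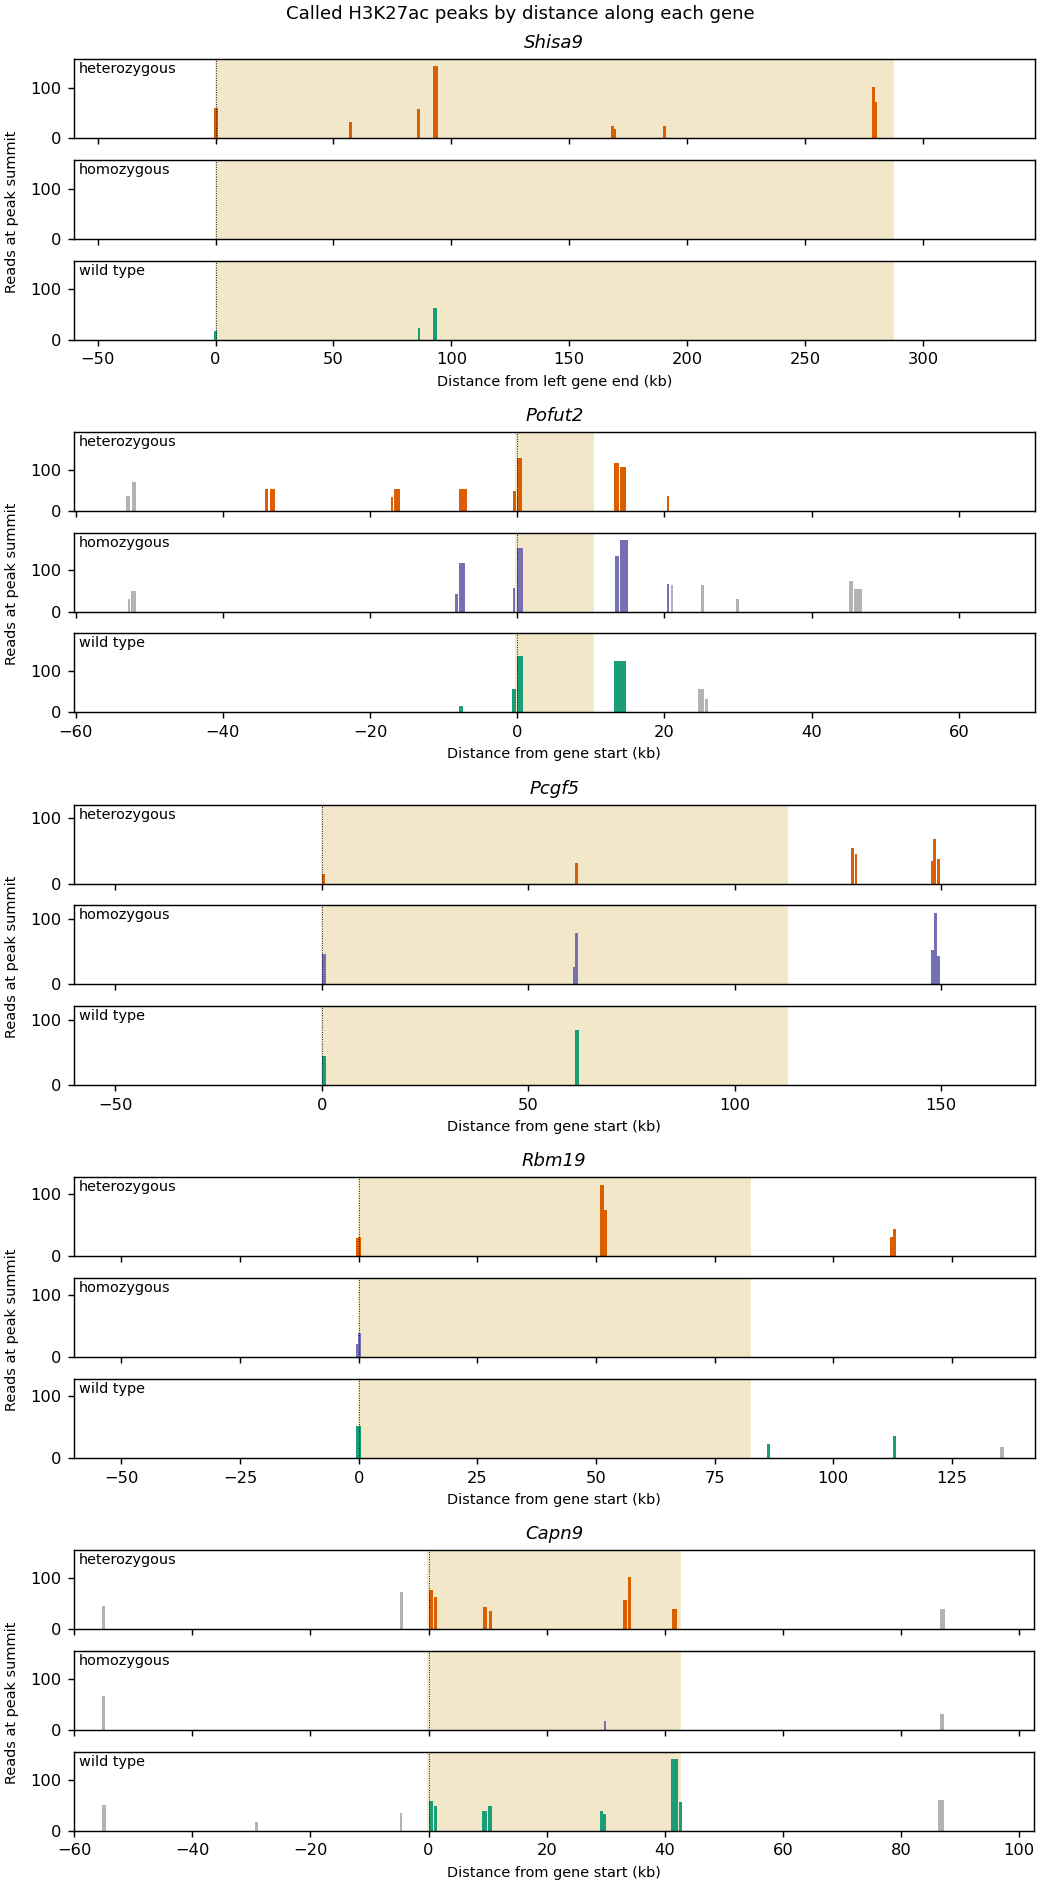
Called peaks at Shisa9, Pofut2, Pcgf5, Rbm19 and Capn9 by distance from the gene start (x axis, kb; for Shisa9 from the left end of the gene) in the heterozygous, homozygous and wild-type libraries, with the reads at each summit as bar height (y axis, not scaled for depth), the gene shaded and neighbouring genes' peaks in grey. Heterozygous bars without counterpart lie inside Shisa9 and Rbm19, before Pofut2 and past the end of Pcgf5, while Capn9 has 7 heterozygous and 8 wild-type bars.

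Set side by side, the promoters divided the genes. A promoter peak in all 3 lists was found for 4 of the 6 genes with an annotated start, Unc5b, Pcgf5, Pofut2 and Rbm19, where 48.3% of 17491 genes had one. At Pcgf5 and Rbm19 the highest promoter summit was lower in the heterozygous library than in both others, also with reads divided by the lowest background of each library, a scaling chosen after seeing the data. At Pofut2 it was 0.942 of the wild-type count as recovered and 1.18 times it after that scaling, so that the direction against wild type turned, while it was 0.838 of the homozygous count either way. At Unc5b and Capn9, and at the end of Shisa9, it was higher than in wild type. The ratios were 3.00, 1.31 and 3.53 as recovered and 3.76, 1.64 and 4.43 after scaling. The local background of these summits was higher as well, so the ratios do not measure enrichment over it. In the heterozygous library it was 10.3 reads at Unc5b, 15.8 at Capn9 and 8.74 at Shisa9. In wild type it was 2.96, 10.5 and 2.17. The same limit holds for the lower summits. At the highest Pcgf5 promoter summit the heterozygous background, 2.40 reads, was below that of wild type, 6.92, and below the homozygous one. At Rbm19 it was 2.68 reads, below the 3.86 of wild type but slightly above the homozygous value. Eva1a had no promoter peak outside the heterozygous library. Outside promoters the highest heterozygous summit was above both others, or the others had none, at Unc5b, Eva1a, Rbm19 and Shisa9, and below at least the homozygous or wild-type one at Pcgf5, Pofut2 and Capn9.

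**Figure D4:**
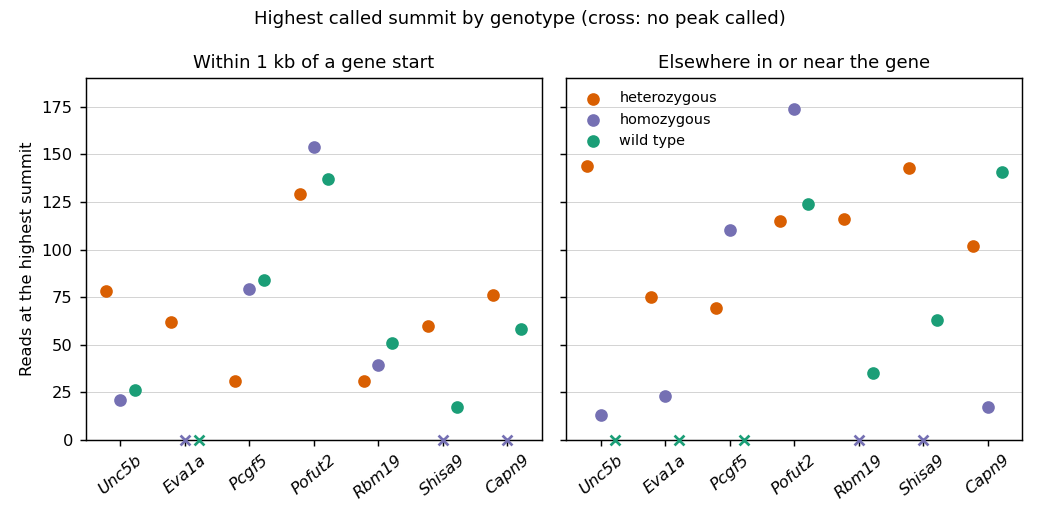
Reads at the highest called summit (y axis, not scaled for depth) at each gene (x axis) within 1 kb of a gene start (left panel; either end for Shisa9) and elsewhere (right panel) in the heterozygous, homozygous and wild-type libraries, with a cross at 0 where no peak was called. In the left panel the heterozygous point is lowest at Pcgf5 (31 reads) and Rbm19 (31), and at Pofut2 its 129 reads lie just under the 137 of wild type, an order that turns with scaling by the lowest background. In the right panel it is highest at Unc5b (144), Eva1a (75), Rbm19 (116) and Shisa9 (143).

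Of the 28 nearest neighbours, 2 on each side of each gene, 24 had a peak. Among these, 6 had more peaks in the heterozygous library than in both others (25%, against 9.76% of all genes with a peak), namely Gcfc2, Hectd2, Col18a1, Gm51791, Sdsl and Ttc13. The excess was 1 peak each at Gcfc2, Gm51791, Sdsl and Ttc13, 2 at Hectd2 and 6 at Col18a1. Against wild type 6 of the 24 had more, 10 fewer and 8 as many. Over all genes with a peak, 15.0% had more than in wild type and 39.4% fewer. Around Unc5b, Slc29a3 had 1 peak in every library and Cdh23, a cadherin gene, had 5 in the heterozygous library, 6 in the homozygous library and 8 in wild type. Within 500 kb of Unc5b, peaks not given to it numbered 25 in the heterozygous library, 20 in the homozygous library and 24 in wild type.

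Pofut2 lay next to a gene with a similar pattern and to another without it. Col18a1, which encodes a basement membrane collagen, is 92551 bp upstream and had 8 peaks in the heterozygous library, 2 in the homozygous library and 1 in wild type. Adarb1, which encodes an RNA-editing deaminase, is 21141 bp downstream and had 2 in the heterozygous library, 8 in the homozygous library and 5 in wild type. Beside Pcgf5, the ubiquitin ligase gene Hectd2 had 2 peaks in the heterozygous library and 0 in both others. Beside Shisa9, the sorting nexin gene Snx29 had 7 in the heterozygous library, 13 in the homozygous library and 14 in wild type, and beside Capn9 the Golgi gene Cog2 had 4 heterozygous, 2 homozygous and 5 wild-type peaks.

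Summed over the 7 flanks of 500 kb, the peaks not given to the 7 genes numbered 153 in the heterozygous library, 116 in the homozygous library and 152 in wild type. The heterozygous count was 1.01 times the wild-type and 1.32 times the homozygous one, where the whole lists had ratios of 0.756 and 0.915. The flanks differed among themselves, with ratios to wild type from 0.600 around Shisa9 to 1.75 around Eva1a, where the counts were only 7 heterozygous and 4 wild-type peaks. Around Rbm19 the flanks held 28 heterozygous, 11 homozygous and 32 wild-type peaks. The flank ratio to wild type was above the whole-list ratio around every gene except Shisa9, and the part of such regional differences in the genes' counts was not tested.

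Ranked by heterozygous peaks minus the larger of the homozygous and wild-type counts, Unc5b was first with 12, Eva1a at rank 3 with 8, and Shisa9 among 13 genes with 6 or more. Pofut2 and Rbm19, with 3 each, were among 157 genes with 3 or more, and Pcgf5, with 1, among 1423 with 1 or more. The 7 are therefore not the 7 genes with the greatest excess. Most like Unc5b and Eva1a by this measure over the 3 libraries were Mecom, a zinc finger regulator gene, with 11 peaks in the heterozygous library, 0 in the homozygous library and 2 in wild type, and Fhit with 11 heterozygous, 4 homozygous and 3 wild-type peaks. Zfp423, another zinc finger gene, had 11 heterozygous, 2 homozygous and 4 wild-type peaks. Plxna1, which encodes a semaphorin receptor, had 7 heterozygous, 0 homozygous and 1 wild-type peak.

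The rest of the first 10 were Col18a1, Pcbp3, Reln and Rph3a. With 8 genes tied at an excess of 6, ties were ordered by symbol, which left Shisa9 out of the first 10. Pcbp3, an RNA-binding protein gene, had 16 peaks in the heterozygous library, 10 in the homozygous library and 10 in wild type. Reln, the gene of the secreted neuronal protein reelin, had 11 heterozygous, 4 homozygous and 5 wild-type peaks. Rph3a, which encodes the vesicle protein rabphilin, had 10 heterozygous, 4 homozygous and 3 wild-type peaks. Pcbp3 and Col18a1 lie on the same side of Pofut2, and Rph3a lies on chromosome 5 with Rbm19.

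**Figure D5:**
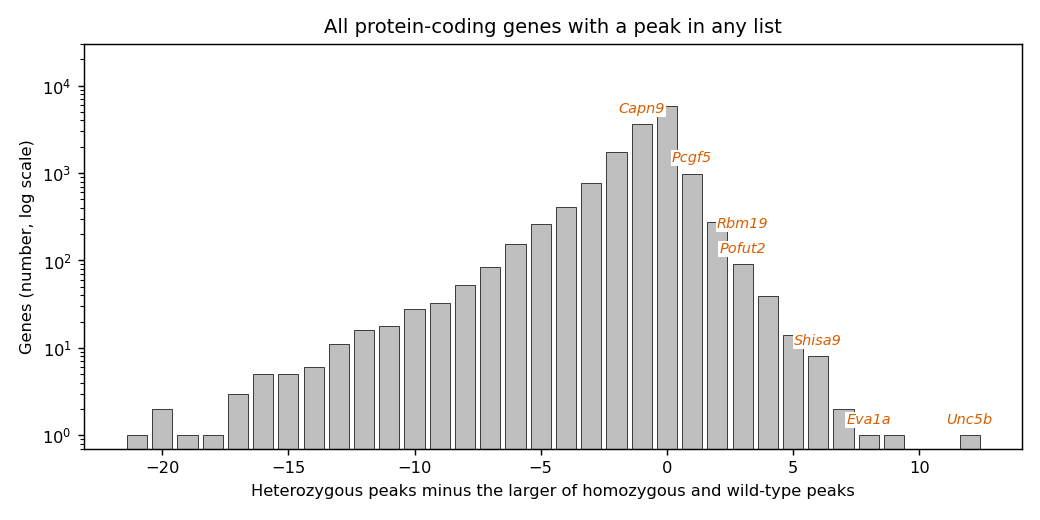
Number of protein-coding genes (y axis, log scale) by heterozygous peaks minus the larger of the homozygous and wild-type counts (x axis), with the 7 genes named at their values. Unc5b stands alone at 12 and Eva1a at 8, while Pcgf5 at 1 and Capn9 at −1 lie in the bulk of the genes, of which 1423 have an excess of 1 or more.

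Among other genes of the same pathways, fewer heterozygous than wild-type peaks were more common in 6 of 7 lists. Counts are over listed genes with a peak in any library. Of 16 such netrin guidance genes besides Unc5b, out of 17 listed, 2 had more peaks in the heterozygous library than in wild type, 10 fewer and 4 as many. The ligand gene Ntn4 had 7 peaks in the heterozygous library, 2 in the homozygous library and 2 in wild type. The other UNC5 receptors went elsewhere, and Unc5a had 4 heterozygous, 3 homozygous and 8 wild-type peaks. Unc5c had 2 heterozygous, 8 homozygous and 9 wild-type peaks, and Unc5d had 0 heterozygous, 5 homozygous and 0 wild-type peaks. Dapk1, a death-associated kinase gene, had 2 heterozygous, 0 homozygous and 8 wild-type peaks.

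Polycomb genes had the largest share of equal counts among the 7 lists. Of 22 others besides Pcgf5, 14 had as many peaks in the heterozygous library as in wild type, 6 had fewer and 2 more, and Pcgf1, Pcgf3, Bmi1 and Pcgf6 had 1 peak in each library. Among 13 other genes of O-fucose glycosylation and its substrates, out of 18 listed, 2 had more and 5 fewer. The fringe gene Lfng had 2 peaks in the heterozygous library and 0 in both others, while Pofut1, the fucosyltransferase gene for EGF-like repeats, had 1 in each. Of 12 other calpain genes, out of 15 listed, 2 had more and 7 fewer, and Capn5 had 8 in the heterozygous library, 3 in the homozygous library and 3 in wild type.

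Among 16 other Shisa and AMPA receptor genes, out of 19 listed, 3 had more peaks in the heterozygous library than in wild type and 9 fewer. Cacng2, the stargazin gene, had 11 in the heterozygous library, 3 in the homozygous library and 9 in wild type. For ribosome biogenesis 1 of 19 others had more and 8 fewer, and for autophagy and the EVA1 family 5 of 15 had more and 4 fewer. The paralog Eva1b had 2 heterozygous, 1 homozygous and 1 wild-type peak, and Eva1c 1 heterozygous, 2 homozygous and 3 wild-type peaks. All 7 lists are to be read beside the 15.0% of genes with more and 39.4% with fewer peaks in the heterozygous library, which are also over genes with a peak.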

How the data were processed

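H3K27ac ChIP-seq peaks of 3 libraries from MIN6 clones were used, 1 library a genotype. Per the labels, each immunoprecipitation used the same antibody and single-end reads. Per the submitters' processing notes, the authors used bcl2fastq and MACS2 on mm10; no source used here gives versions, aligner, control or calling threshold. The deposited lists give, per peak, a score, a fold enrichment (ratio of summit to local background), −log10 p and −log10 q, which depend on the depth of each library. No read totals were to hand.

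Summit reads and local background were recovered from the deposited fold and −log10 p, taking MACS2's Poisson upper tail for p and adding 1 to reads and background in the fold, with a tolerance of 0.001; this worked for 31363 of 31365 heterozygous, 34297 of 34298 homozygous and 41489 of 41490 wild-type peaks. They were not scaled between libraries, except in an added alternative that divides them by the lowest background. Genes were those of RefSeq on GRCm38.p6, and gene starts and strands came from its promoter table, which matched 6 of the 7 genes. Overlap meant at least 1 bp. Assignment and recovery were tested on simulated data, and assignment was checked against bedtools 2.31.1. Python 3.11.15, pandas 2.3.3, scipy 1.17.1, statsmodels 0.14.6 and matplotlib 3.10.9 were used.

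The genes and lists were chosen with earlier results of these data known. Named besides the 7 were the 2 nearest protein-coding genes on each side and members of 7 pathway lists. Also named were the 10 genes with the largest heterozygous excess, with ties ordered by symbol. Those printed from the neighbours and lists were chosen after their values were seen. Alternatives covered the gene window, list length, peak threshold, joining of split peaks, union regions, overlap and promoter window.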

Additional observations from a re-analysis of the deposited data

How the results depend on the processing

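The number of the 7 genes with more heterozygous peaks than both other genotypes was 4 to 7 over the settings tried, against 6 as reported. With peaks inside genes only, the 7 genes held 38 heterozygous and 7 homozygous peaks, and 86.84% of the heterozygous peaks met no homozygous peak. With peaks at or above the median −log10 q of each list they held 34 heterozygous, 8 homozygous and 11 wild-type peaks. With peaks within 500 bp counted as 1 they held 37 heterozygous and 12 homozygous peaks. Of 104 single-gene differences that were above 0 as reported, 98 kept that sign, 4 came to 0 and 2 turned. These 2 were Pcgf5 against homozygous and Pofut2 against wild type, each at -1 with peaks inside genes only. Capn9 against wild type turned to 1 with lists of equal length, with the median −log10 q and with a −log10 q of at least 10. Rbm19 against wild type came to 0 with peaks within 500 bp counted as 1. With summit reads divided by the lowest background of each library, chosen after seeing the data, the Pofut2 promoter summit turned to 1.18 times wild type, against 0.942 as reported. With a window of 100 kb the Rbm19 excess over homozygous was 12, against 4 as reported. Beyond what each setting removes, the cause of these changes was not tested. No paired analysis was possible because each genotype has 1 library, and none could be left out for the same reason. A peak that is not called may lie just under the threshold of its library.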
